A study of Mus musculus with 11 samples.

Results

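Integrins and laminins were examined in mouse skeletal muscle, in sorted mesenchymal progenitors in which beta-catenin can be stabilised and in the whole muscle that contains such cells. These families were chosen with earlier results of these data known. Within them, members were taken by name: every gene symbol of both count tables that denotes an integrin alpha, integrin beta or laminin chain. This gave 37 of the 24421 symbols counted, namely 26 integrins (18 alpha and 8 beta chains) and 11 laminin chains (5 alpha, 3 beta and 3 gamma).

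WT/flox mice carried a tamoxifen-inducible Cre recombinase under control of the Hic1 locus (Hic1CREERT2), a tdTomato reporter, 1 WT allele of the beta-catenin gene Ctnnb1 and 1 allele with loxP sites around exon 3. Recombination of that exon removes the phosphorylation sites that mark beta-catenin for degradation, and the protein that remains is stable. The labels call the controls WT. They do not state the Cre and reporter alleles of the controls, but WT progenitors passed the same tdTomato gate. The sources used here state neither age nor tamoxifen dose, and the muscle is labelled as resting. Progenitors were sorted as negative for CD45, CD31 and alpha7 and positive for Sca1 and tdTomato. The 3 WT/flox progenitor libraries were 74A1 and 72B7, from day 14 after tamoxifen, and 74A3, from day 56. The 3 WT progenitor libraries, 72B8, 74A2 and 73C3, were all from day 14. Whole lysates of the tibialis anterior, all from day 56, comprised the WT/flox libraries 71B3, 71B4 and 71B5 and the WT libraries 73A5 and 73A7. The deposited sample table gives 74A1 and 74A2 as female and all other animals as male. In lysates, Cre acts only in cells whose Hic1 locus is active and in their progeny, so fibres and most other cells keep both alleles intact.

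Total counts ran from 13119843 to 16805238 in progenitor libraries and from 16892158 to 19449227 in lysates. Each library is a separate animal, and the p-values measure the spread between animals. A list of 10 progenitor markers held 4.53 to 4.82% of counts in WT/flox and 2.97 to 3.59% in WT progenitors, and 10 leukocyte markers held at most 0.00154%. The progenitor sum is mostly Dcn and Col1a1. Col1a1 had 207953 to 252599 counts in WT/flox and 106942 to 116520 in WT progenitors, whereas Pdgfra had 14960 to 17603 and 23250 to 27738. Of the 10 markers 1 was higher in WT/flox at an edgeR adjusted p under 0.05 and 0 were lower, so the sum does not measure purity. Levels are given as CPM, the count of a gene relative to its library after scaling by the trimmed mean of M values. Ctnnb1 was at 402 ± 23.1 CPM in WT/flox and 482 ± 38.3 CPM in WT progenitors (SD, n = 3 each; edgeR adjusted p = 0.673). These counts span the whole gene, so they are no check of exon 3 itself. Hic1, whose locus drives the Cre, was at 84.0 ± 13.3 CPM in WT/flox and 100.4 ± 11.4 CPM in WT progenitors (adjusted p = 0.711). The animal numbers of the lysates begin with 71B in every WT/flox animal and with 73A in both WT animals, so genotype and whatever that prefix stands for cannot be told apart.

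Laminins are cross-shaped trimers of an alpha, a beta and a gamma chain, secreted into basement membranes, the sheets of matrix that surround muscle fibres, vessels and nerves. Integrins are heterodimers of an alpha and a beta chain that span the cell membrane and link such matrix to the cytoskeleton. Around muscle fibres the alpha2 laminins are the main form, bound by integrin alpha7 beta1 and by dystroglycan, and loss of Lama2 or Itga7 causes muscular dystrophy. Fibro/adipogenic progenitors lie outside the fibre, in the interstitial matrix, and produce much of it.

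In sorted progenitors 1 of 28 tested members, a laminin beta chain, was called between the genotypes. That is 3.57%, close to the 3.66% called over all 12392 genes tested. Lamb1, which encodes the beta1 chain (ENSMUSG00000002900, GRCm38 chr12:31265234-31329644, plus strand), was the only member called between WT/flox and WT progenitors, where called means an edgeR quasi-likelihood test with a Benjamini-Hochberg adjusted p under 0.05 over all genes tested. Lamb2, which encodes the beta2 chain (ENSMUSG00000052911, chr9:108479736-108490530, plus strand), had values in the opposite direction. In lysates the member called was Itgb5, the integrin beta5 chain that pairs with alpha v (ENSMUSG00000022817, chr16:33829665-33949338, plus strand). The start regions of these genes are shown because the genotype results below name them. Each runs from 250 bases before to 50 bases after the RefSeq start site on GRCm38.p6, 5′ to 3′ on the plus strand, at chr12:31265043-31265342 for Lamb1, chr9:108479612-108479911 for Lamb2 and chr16:33829415-33829714 for Itgb5. Capitals mark the GC box, GGGCGG or its reverse complement.
Lamb1: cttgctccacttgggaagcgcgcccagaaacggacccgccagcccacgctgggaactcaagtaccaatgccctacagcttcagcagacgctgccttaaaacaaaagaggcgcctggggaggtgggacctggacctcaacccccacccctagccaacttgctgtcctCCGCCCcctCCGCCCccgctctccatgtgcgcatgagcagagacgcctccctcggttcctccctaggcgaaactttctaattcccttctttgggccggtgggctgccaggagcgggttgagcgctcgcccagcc
Lamb2: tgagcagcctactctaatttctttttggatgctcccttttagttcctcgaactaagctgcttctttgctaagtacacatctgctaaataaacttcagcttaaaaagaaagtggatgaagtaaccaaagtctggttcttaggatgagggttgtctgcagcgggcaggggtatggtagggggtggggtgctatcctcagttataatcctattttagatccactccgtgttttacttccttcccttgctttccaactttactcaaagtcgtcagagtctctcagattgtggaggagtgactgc
Itgb5: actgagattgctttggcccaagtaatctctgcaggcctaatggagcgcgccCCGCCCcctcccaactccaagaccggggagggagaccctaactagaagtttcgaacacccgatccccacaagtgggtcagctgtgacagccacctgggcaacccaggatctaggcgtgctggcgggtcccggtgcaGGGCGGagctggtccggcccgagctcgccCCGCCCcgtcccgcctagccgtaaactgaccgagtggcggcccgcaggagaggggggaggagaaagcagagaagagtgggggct
The Lamb1 window holds 2 GC boxes and is 63.7% G or C, the Itgb5 window holds 3 and is 65.7% G or C, and the Lamb2 window holds 0 and is 44% G or C. None of the 3 holds the core letters read by TCF/LEF factors, the DNA-binding partners of beta-catenin, searched on both strands as CTTTG followed by 2 bases that are each A or T. Among 23 members with a RefSeq window, 2 hold such a core (Itga1 and Itga10), against 16.9% of all 32851 windows. A GC box is in 11 of the 23, against 35.7% of all windows, and TATAAA is in 0 of the 23, against 13.6%. A match is a match of letters only, and its absence from these windows says nothing about sites elsewhere.

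Lamb1 fell in WT/flox progenitors. Raw counts were 9622 (74A1), 8009 (72B7) and 6311 (74A3) in WT/flox progenitors, against 22133 (72B8), 29616 (74A2) and 19279 (73C3) in WT progenitors. Lamb1 was at 706, 590 and 478 CPM in WT/flox libraries in that order, and at 1667, 1960 and 1134 CPM in WT libraries. Every WT/flox library was below every WT library, and the day 56 library 74A3 was the lowest of the 6. Lamb1 averaged 592 ± 114 CPM in WT/flox and 1587 ± 419 CPM in WT progenitors (SD, n = 3 each), and edgeR put the log2 fold change at -1.42 (SE 0.25, adjusted p = 0.0122). Over all 12392 genes tested in progenitors, 3.66% were called, 2.34% higher and 1.32% lower. Of the 37 members, 28 had enough counts to be tested, and 0 were called higher and 1 lower. The adjusted p of Lamb1 ran from 0.003993 to 0.0763 when each library was left out, and the call was lost without 72B7 (-1.42, adjusted p = 0.0763) and without 74A3, which leaves day 14 libraries only (-1.29, adjusted p = 0.0732).

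Lamb2 was higher in each WT/flox library without passing the edgeR test. It was at 2424 (74A1), 3377 (72B7) and 2713 (74A3) CPM in WT/flox progenitors, and at 2044 (72B8), 1296 (74A2) and 1406 (73C3) CPM in WT progenitors. The genotypes did not overlap, and the means were 2838 ± 489 CPM in WT/flox and 1582 ± 404 CPM in WT (log2 fold change 0.84, SE 0.24, edgeR adjusted p = 0.102). DESeq2, used as an alternative, called it (adjusted p = 0.00506). Lamb3, the beta3 chain of epithelial laminin, summed to 50 counts in WT/flox and 121 in WT progenitors, with values too spread to pass the edgeR test (-1.12, SE 0.55, adjusted p = 0.487). Its locus is overlapped in antisense by G0s2 and Hsd11b1, and no source used here states whether the counting read the strand, so its reads cannot be told apart from theirs.

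The makeup of the beta class was therefore described per kilobase of exon, which allows levels of different genes to be set side by side. Lamb1 made up 15.1 (74A1), 9.68 (72B7) and 9.76% (74A3) of beta chain counts per kilobase in WT/flox progenitors, and 33.3 (72B8), 48.1 (74A2) and 33.1% (73C3) in WT progenitors. Lamb2 made up 84.8, 90.3 and 90.2% in the same WT/flox libraries, and 66.6, 51.9 and 66.8% in the same WT libraries. The genotypes were apart. The shares of Lamb1 and Lamb2 mirror each other, since Lamb3 held at most 0.139% of the class in any progenitor library. With the longest transcript as the length, the share of Lamb1 was 14.5 to 22.1% in WT/flox and 43.9 to 59.5% in WT progenitors. All 11 laminin chains together took 0.803 to 0.990% of counts in WT/flox and 0.759 to 1.14% in WT progenitors, ranges that overlap.

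**Figure D1:**
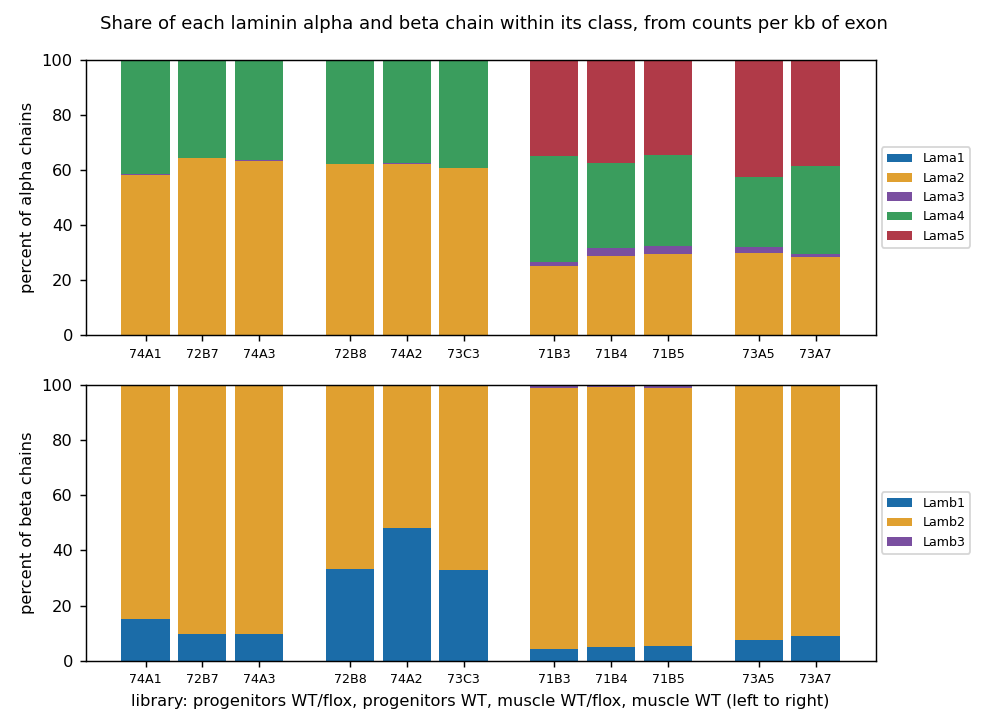
Each bar is 1 library and shows the percent of alpha (top) or beta (bottom) laminin chain counts per kilobase of exon held by each chain, with WT/flox progenitors, WT progenitors, WT/flox muscle and WT muscle from left to right. Lamb1 holds 9.68 to 15.1% of the beta class in WT/flox progenitors and 33.1 to 48.1% in WT progenitors, while Lama2 and Lama4 share the alpha class at similar levels in both.

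The alpha and gamma chains of progenitors gave no call. Lama2, the alpha chain of muscle laminin, averaged 2157 ± 418 CPM in WT/flox and 2164 ± 478 CPM in WT progenitors (SD, n = 3 each; SE of the log2 fold change 0.24). Lama4, the alpha chain of vessel and nerve laminin, had a log2 fold change of -0.03 (SE 0.21). Per kilobase, Lama2 held 62.0 ± 3.35% and Lama4 37.8 ± 3.22% of the alpha class in WT/flox progenitors, and 61.7 ± 0.872% and 38.1 ± 0.898% in WT progenitors. Lama5, the alpha chain of mature endothelial and epithelial basement membranes, held 0.0896% in WT/flox and 0.0869% in WT progenitors. Lamc1, the gamma chain of most laminins, held 96.8 ± 2.07% of the gamma class in WT/flox and 97.4 ± 0.334% in WT progenitors. Its level had a log2 fold change of -0.20 (SE 0.22).

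The gamma chain gene Lamc3 varied widely between animals of 1 genotype, with 85 (74A1), 1310 (72B7) and 505 (74A3) counts in WT/flox progenitors, and 637 (72B8), 404 (74A2) and 224 (73C3) counts in WT progenitors. The WT/flox values enclosed all WT values, and no difference was detectable (0.69, SE 0.89, edgeR adjusted p = 0.942).

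**Figure D2:**
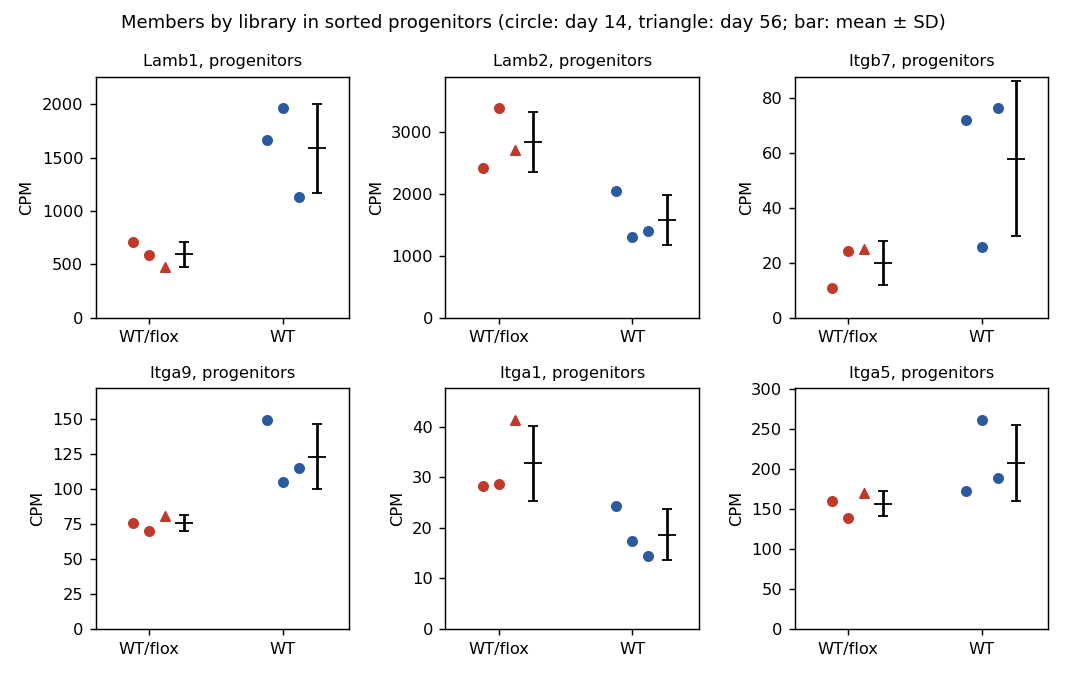
CPM of 6 members in each sorted progenitor library, with WT/flox left of WT, circles for day 14, a triangle for day 56, and the mean ± SD beside each group. Lamb1, Itgb7, Itga9 and Itga5 are lower, and Lamb2 and Itga1 higher, in every WT/flox library than in every WT library; only Lamb1 was called by edgeR.

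No integrin was called in progenitors, of 18 tested: 7 had a positive and 11 a negative log2 fold change, with a median of -0.15, against 0.00 over all 12392 genes tested. Itgb7, the beta chain of the leukocyte integrins alpha4 beta7 and alphaE beta7, was at 10.6 (74A1), 24.2 (72B7) and 24.9 (74A3) CPM in WT/flox progenitors, and at 72.0 (72B8), 25.6 (74A2) and 76.1 (73C3) CPM in WT progenitors. The WT library 74A2 lay close above the highest WT/flox library, far below the other WT libraries. The log2 fold change was -1.54 (SE 0.44, edgeR adjusted p = 0.120). The difference passed with sex as a term, where the females 74A1 and 74A2 are set against each other (-1.49, adjusted p = 6.8e-04), and without 74A2 (-1.90, adjusted p = 0.0124). Its known partner chains were nearly unread in these cells: Itga4 had 7 counts over the WT/flox and 7 over the WT progenitor libraries, and Itgae had 9 and 4.

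Itga9, the alpha chain of a receptor for tenascin C and other interstitial ligands, was at 75.9 (74A1), 70.0 (72B7) and 80.9 (74A3) CPM in WT/flox progenitors, and at 149 (72B8), 105 (74A2) and 115 (73C3) CPM in WT progenitors. Again the genotypes did not overlap, and the value lay just outside the edgeR threshold (-0.70, SE 0.17, adjusted p = 0.0613). It passed with DESeq2 (adjusted p = 0.0106) and with no filter on low counts (adjusted p = 0.0445). Itga1, the alpha chain of a collagen receptor, was at 28.3 (74A1), 28.7 (72B7) and 41.4 (74A3) CPM in WT/flox progenitors, and at 24.3 (72B8), 17.4 (74A2) and 14.4 (73C3) CPM in WT progenitors (0.81, SE 0.23, edgeR adjusted p = 0.109; DESeq2 adjusted p = 0.0354). Its locus contains Pelo on the same strand. Itga5, the fibronectin receptor chain, was at 156 ± 15.7 CPM in WT/flox and 207 ± 47.2 CPM in WT progenitors (-0.41, SE 0.19, edgeR adjusted p = 0.454).

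In all, libraries of the genotypes did not overlap for 8 of the 28 tested members, 6 lower and 2 higher in WT/flox progenitors, or 28.6%, against 16.9% of all genes tested. Among them were Lamb1, Lamb2, Itgb7, Itga9, Itga1, Itga5 and Itgb5. Among the more abundant integrins, Itgb1, the common beta chain, had a log2 fold change of 0.05 (SE 0.19), Itga11, the collagen receptor chain of fibroblasts, 0.04 (SE 0.23), and Itgav -0.03 (SE 0.20), while Itgb5 was at -0.29 (SE 0.16) and Itga5 at -0.41 (SE 0.19). Integrins together took 0.200 to 0.239% of counts in WT/flox and 0.237 to 0.268% in WT progenitors. The 9 members not tested were Itga3, Itga4, Itgad, Itgae, Itgam, Itgax, Itgb2, Itgb6 and Lama1. Each had at most 31 counts summed over a progenitor group, and Itgad had 0 in all 11 libraries, which allows a level of up to 0.017 CPM (3 counts of 176409334, counting error only).

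Marker lists of other cells also lay apart between the progenitor groups. The summed 10 endothelial markers took 0.0261 to 0.0317% of counts in WT/flox and 0.0351 to 0.0484% in WT progenitors, and the summed 9 mural markers 0.0495 to 0.0537% and 0.0598 to 0.0799%. The summed 5 tendon markers took 0.166 to 0.212% in WT/flox and 0.110 to 0.155% in WT progenitors. These sums rest on few genes. Thbs4 had 22077 to 26486 counts in WT/flox and 12046 to 18671 in WT progenitors and was called higher, as was Mkx, whereas Fmod had 729 to 1520 in WT/flox and 2281 to 6535 in WT progenitors, and the median of the tendon list was -0.43. Of the endothelial markers Tek was called lower (-1.31, SE 0.18) and Kdr higher (4.23, SE 0.44), and of the mural markers Cspg4 lower (-2.24, SE 0.30). Tek made up most of the endothelial sum in WT, with 1805 to 2249 counts in WT/flox and 4976 to 6358 in WT progenitors. The remaining 8 endothelial markers gave no call. Among them, Pecam1 (71 to 93 and 35 to 168 counts) and Cdh5 (64 to 81 and 27 to 154) overlapped between the genotypes. Vessel cells carry laminins and integrins of their own, and the part of these values in the differences above was not tested.

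**Figure D3:**
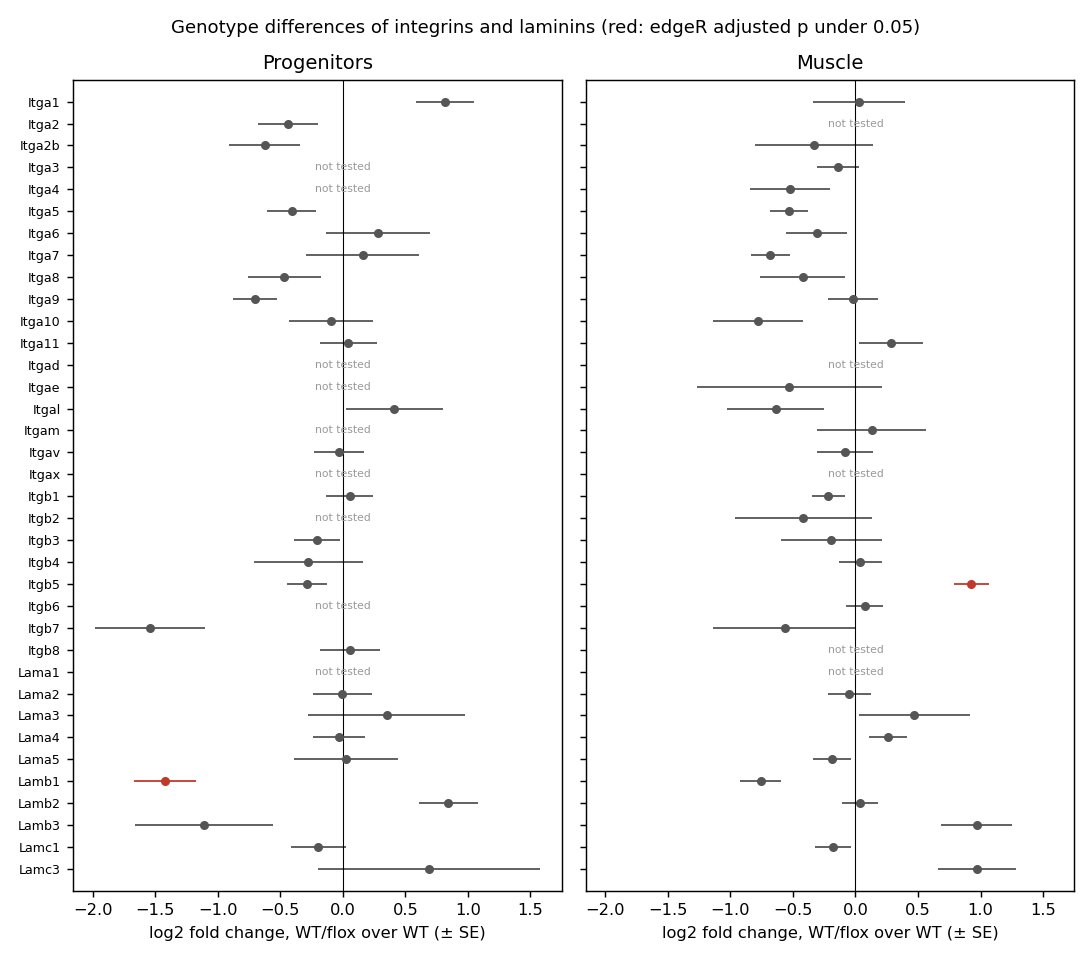
Log2 fold change of WT/flox over WT ± SE for each member shown that was tested, in progenitors (left, n = 3 against 3) and muscle (right, n = 3 against 2); red points were called by edgeR. Lamb1 at -1.42 is the red point in progenitors and Itgb5 at 0.93 the red point in muscle.

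In whole muscle Itgb5 rose in WT/flox animals. Raw counts were 5075 (71B3), 4781 (71B4) and 4957 (71B5) in WT/flox muscle, against 2272 (73A5) and 2040 (73A7) in WT muscle. As CPM these were 267, 255 and 237 in WT/flox muscle, and 136 and 131 in WT muscle. The groups lay far apart relative to the spread within each. The means were 253 ± 15.2 CPM in WT/flox (SD, n = 3) and 133 ± 3.74 CPM in WT muscle (SD, n = 2), a log2 fold change of 0.93 (SE 0.14, edgeR adjusted p = 0.0346). Over all 12654 genes tested in muscle, 0.727% were called, 0.514% higher and 0.213% lower. Of the 37 members, 32 were tested, and 1 was called higher and 0 lower. The fold change stayed between 0.88 and 0.97 when each library was left out. The call, at an adjusted p of 0.0358 to 0.230, was lost without 71B3 (adjusted p = 0.116), without 71B4 (0.230) and without 71B5 (0.110). A change in the number of cells of a type and a change in RNA per cell cannot be told apart in lysates.

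Per kilobase of exon, Itgb5 made up 52.5 (71B3), 51.5 (71B4) and 48.2% (71B5) of all integrin beta chains in WT/flox muscle, and 32.8 (73A5) and 31.7% (73A7) in WT muscle. Itgb1 made up 42.2 ± 1.77% in WT/flox and 59.1 ± 0.416% in WT muscle, while its own CPM was 242 ± 6.54 in WT/flox and 281 ± 3.29 in WT muscle (log2 fold change -0.22, SE 0.13, edgeR adjusted p = 0.677). Itgav, the alpha chain that pairs with beta5, was at 32.4 ± 7.36 CPM in WT/flox and 34.4 ± 7.27 CPM in WT muscle (-0.08, SE 0.22). Itgb6, another partner of alpha v, had a log2 fold change of 0.07 (SE 0.15), and Itgb3 of -0.19 (SE 0.41).

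The summed level of progenitor markers lay apart between the lysate groups, while single markers mostly gave no call. The summed 10 progenitor markers took 0.125 to 0.138% of counts in WT/flox and 0.0594 to 0.0904% in WT muscle, the 6 muscle stem cell markers 0.00996 to 0.0112% and 0.00601 to 0.00607%, and the 10 myofibre markers 13.2 to 16.8% and 16.7 to 18.2%. Of 10 progenitor markers 1 was called higher, Cxcl14, and 0 lower, with a median log2 fold change of 0.29. Of 5 tested muscle stem cell markers 1 was called higher, Myod1, and 0 lower, and 0 myofibre markers were called. The part of these shifts in the Itgb5 value was not tested. Lysate values are given here for some of the members called higher in WT progenitors than in WT muscle. The part of progenitor number in them was not tested. Lama2 had a log2 fold change of -0.05 (SE 0.17), Lamc1 of -0.18 (SE 0.14) and Lamb1 of -0.76 (SE 0.16). Lama4 was at 0.26 (SE 0.15), Itga11 at 0.28 (SE 0.25) and Lamc3 at 0.97 (SE 0.31).

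Lamb1 and Itga7 were lower in each WT/flox lysate without passing the edgeR test. Lamb1 was at 15.6 (71B3), 17.9 (71B4) and 16.5 (71B5) CPM in WT/flox muscle, and at 24.3 (73A5) and 32.1 (73A7) CPM in WT muscle (-0.76, SE 0.16, edgeR adjusted p = 0.120). Its share of the beta laminin class per kilobase was 4.37 to 5.30% in WT/flox and 7.45 to 8.92% in WT muscle. Lamb2 was nearly level, at 197 ± 16.1 CPM in WT/flox and 192 ± 11.1 CPM in WT muscle (0.04, SE 0.14). Itga7, the laminin receptor chain of the fibre and the antigen that the sort excluded, was at 83.9 (71B3), 87.5 (71B4) and 74.1 (71B5) CPM in WT/flox muscle, and at 117 (73A5) and 146 (73A7) CPM in WT muscle (-0.68, SE 0.16, edgeR adjusted p = 0.135). Its locus overlaps Mettl7b in antisense. DESeq2 called both, Lamb1 with an adjusted p of 0.0203 and Itga7 with 0.0113. When each library was left out, the edgeR log2 fold change ran from -0.95 to -0.55 for Lamb1 and from -0.83 to -0.51 for Itga7.

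**Figure D4:**
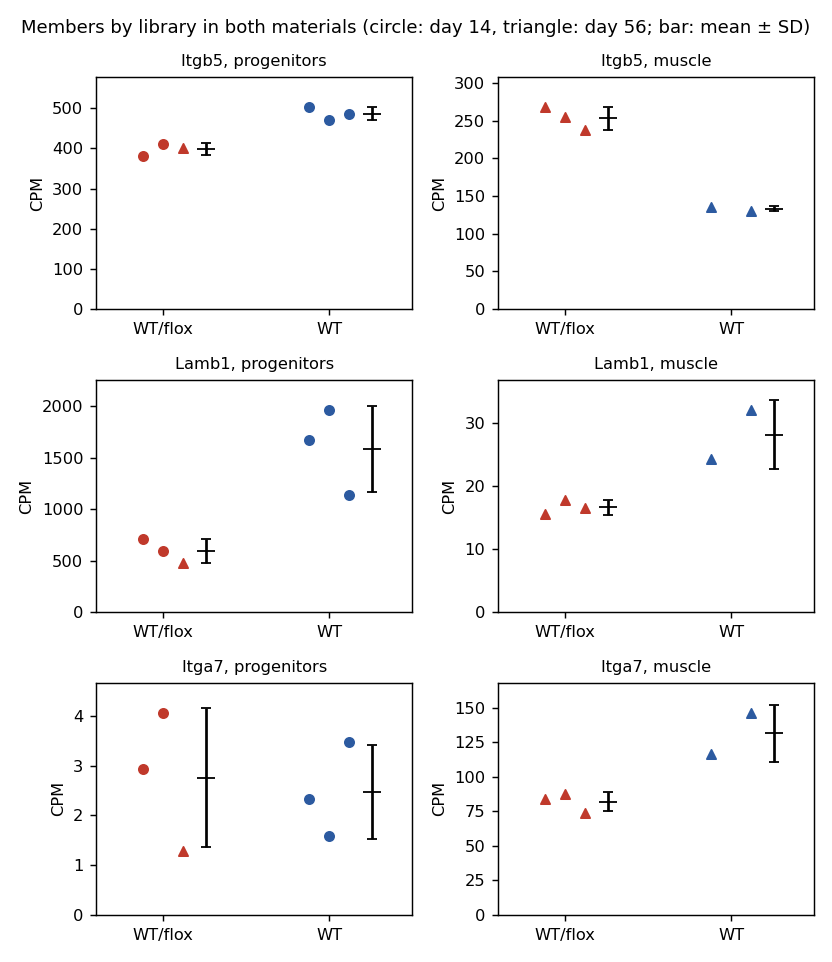
CPM of Itgb5, Lamb1 and Itga7 in each library of progenitors (left column) and muscle (right column), with WT/flox left of WT, circles for day 14, triangles for day 56, and the mean ± SD beside each group. Itgb5 is at 237 to 267 CPM in WT/flox and 131 to 136 CPM in WT muscle, but at 382 to 412 CPM in WT/flox and 469.8 to 502 CPM in WT progenitors.

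In muscle, libraries of the genotypes did not overlap for 10 of the 32 tested members, 4 higher and 6 lower in WT/flox, or 31.2%, against 25.3% of all genes tested. Beside Itgb5, Lamb1, Itga7 and Itgb1 these included Lama4 (0.26, SE 0.15), Itga5 (-0.53, SE 0.15), Itga10 (-0.78, SE 0.36) and members with few counts, such as Lamb3, with 125 counts in WT/flox and 35 in WT muscle (0.97, SE 0.28), and Lamc3, with 132 and 37 (0.97, SE 0.31). Of those named here, Itgb5 alone passed the edgeR test. The median log2 fold change over the 32 members was -0.18, against 0.00 over all genes tested. The 5 members not tested in muscle were Itga2, Itgad, Itgax, Itgb8 and Lama1.

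The genotype effect on Itgb5 differed between the materials. In progenitors Itgb5 was at 382 (74A1), 412 (72B7) and 400.0 (74A3) CPM in WT/flox, and at 502 (72B8), 469.8 (74A2) and 486 (73C3) CPM in WT (log2 fold change -0.29, SE 0.16, edgeR adjusted p = 0.586). Every WT/flox library was thus above every WT library in muscle and below every WT library in progenitors. The difference of the effects, progenitors minus muscle, was -1.27 on the log2 scale (SE 0.23, edgeR adjusted p = 0.0167), in a fit of all 11 libraries in which material and day change together. Over the 13781 genes of that fit 0.769% were called, and Itgb5 was 1 of 34 tested members, 0 of them called with a positive and 1 with a negative difference. Leaving out each library gave -1.31 to -1.16, with adjusted p of 0.0121 to 0.0815, and the call was lost without 73A5, 73A7, 71B3, 71B4, 74A1 or 74A3. For Lamb1 the difference was -0.71 (SE 0.33, adjusted p = 0.567).

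Sorted progenitors and whole muscle carried different integrins and laminins. Between WT progenitors and WT muscle 21 of 34 tested members were called higher and 10 lower, 91.2% in all, against 76.1% of the 13781 genes tested (38.6% higher and 37.5% lower). Material, day after tamoxifen and RNA kit change together here. Laminin chains accounted for 7 of the higher and 1 of the lower calls.

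Per kilobase of exon, on a scale set over all 11 libraries, the 5 highest members in WT progenitors were Lamc1 at 319 ± 51.7, Lamb2 at 218 ± 50.8, Itgb1 at 154 ± 7.75, Lamb1 at 134 ± 30.5 and Itgb5 at 115 ± 6.51 CPM per kilobase (SD, n = 3). Next came Lama2 at 111 ± 19.9, Itga11 at 75.2 ± 17.9, Lama4 at 68.2 ± 10.1, Itga5 at 35.3 ± 7.55 and Itgb7 at 17.7 ± 8.94. Lamb1, Itgb5 and Lama2 lay within each other's spread, as did Itga11 and Lama4. In WT/flox progenitors Lamb2 headed the order at 381 ± 67.3, Lamc1 followed at 271 ± 37.5, and Lamb1 was in place 8 at 48.7 ± 9.51, against place 4 in WT. The order depends on the length used: with the longest transcript, the first 5 in WT progenitors were Lamc1, Lamb2, Lamb1, Lama2 and Itgb1, and Itgb5 was in place 7. In WT muscle the order began with Itgb1 at 85.9 ± 1.81, Itgb5 at 46.9 ± 1.75, Lamb2 at 39.4 ± 1.91, Itga7 at 20.3 ± 3.01 and Lamc1 at 14.0 ± 0.429 (SD, n = 2). Itgb6, at 8.83 ± 0.158, Itga6, at 4.72 ± 1.90, Itga5, at 3.62 ± 0.140, and Lama5, at 3.57 ± 0.591, followed, and Itgav lay between Itga6 and Itga5; the last 4 lay within each other's spread. In WT/flox muscle Itgb5, at 89.4 ± 5.56, stood above Itgb1, at 74.3 ± 1.91.

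**Figure D5:**
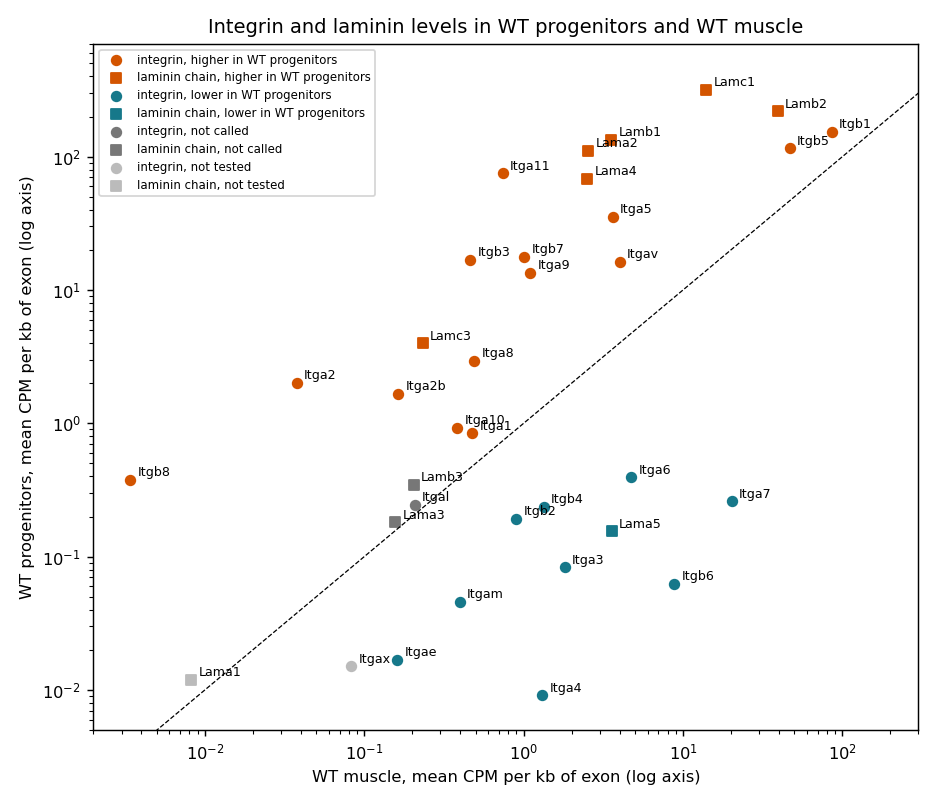
Mean CPM per kilobase of exon of the members shown, each detected in both, in WT progenitors (vertical, log axis, n = 3) against WT muscle (horizontal, log axis, n = 2); circles are integrins, squares laminin chains, and the dashed line marks equal levels. Itga11, Lama2, Lamb1 and Lama4 lie far above the line, and Itga7, Itga4, Itgb6 and Lama5 far below it.

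Of 24 integrins tested, 14 were higher in WT progenitors. Itga11 was at 462 ± 128 CPM in WT progenitors and 3.05 ± 0.759 CPM in WT muscle, each scaled within its material, and 101.3-fold higher in WT progenitors in the joint fit (log2 fold change 6.66, SE 0.32, edgeR adjusted p = 2.9e-10). Itga2, another collagen receptor chain, was higher by 5.69 (SE 0.41), Itgb3, a partner of alpha v, by 5.19 (SE 0.35), and Itga5 by 3.29 (SE 0.22). Itgb8, which with alpha v activates latent TGF-beta, had 224 counts in WT progenitors and 1 in WT muscle, a ratio of 107.8 per scaled library (exact 95% counting interval 19.15 to 4276). Itgb1 and Itgb5, abundant in both, were higher by 0.84 (SE 0.19) and 1.30 (SE 0.17). The other higher integrins were Itgb7 (4.15, SE 0.65), Itga9 (3.61, SE 0.22), Itga2b (3.34, SE 0.41), Itga8 (2.58, SE 0.38), Itgav (2.02, SE 0.26) and Itga10 (1.26, SE 0.39), the last not called without 73A5. Itga1, at 0.82 (SE 0.34, adjusted p = 0.0408), was not called by DESeq2 or without 73A7, 71B3 or 72B8.

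Of the integrins tested, 9 were lower in WT progenitors. Itga7 was lower in WT progenitors (-6.28, SE 0.36), a direction that the alpha7 gate of the sort itself sets. Itgb6, an epithelial partner of alpha v that is also read in these lysates, summed to 23 counts in WT progenitors and 1625 in WT muscle (-7.16, SE 0.40). Itga4, a receptor for fibronectin and VCAM1 that overlaps Cerkl in antisense, summed to 7 and 477 counts (-7.05, SE 0.52). The laminin receptor chains Itga3 (-4.40, SE 0.32) and Itga6 (-3.59, SE 0.40) were lower too, as was Itgb4 (-2.49, SE 0.34), a partner of Itga6. So were the leukocyte chains Itgae (-3.17, SE 0.92), Itgam (-3.10, SE 0.57) and Itgb2 (-2.22, SE 0.71), each with 70 or fewer counts over the WT lysates. Without 73A7, Itgae and Itgb2 were not called, nor was Itgae without 71B5 or Itgb2 under library totals. The leukocyte gene Ptprc, which encodes CD45, had 2 to 9 counts in WT progenitor and 17 to 41 in WT muscle libraries. The CD45 gate of the sort itself sets this direction for leukocyte genes.

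Laminin chains of all 3 classes were higher in WT progenitors, with Lama5 the 1 chain called lower. Lama2 was higher by 5.44 (SE 0.31) and Lama4 by 4.77 (SE 0.25) in WT progenitors, whereas Lama5 was lower (-4.53, SE 0.29). The sort also excluded CD31, and of 10 endothelial markers 9 were called lower and 1 higher in WT progenitors. The part of that gate in the Lama5 value was not tested. Lama5 held 0.0869 ± 0.0389% of the alpha class per kilobase in WT progenitors and 40.5 ± 2.88% in WT muscle, where Lama2 held 28.9% and Lama4 28.7%. With the longest transcript as the length, Lama5 held 27.3%, Lama2 33.1% and Lama4 38.4% in WT muscle, so the order of these 3 in muscle depends on the length used. Lamb1 was higher by 5.24 (SE 0.31), Lamc1 by 4.51 (SE 0.27), Lamc3 by 4.08 (SE 1.06; not called without 73A7) and Lamb2 by 2.47 (SE 0.26). Lama3, Lamb3 and Itgal were not called, although Lamb3 was without 74A2 and under library totals. Scaling to library totals in place of trimmed means gave a median log2 difference of all genes of 0.75, against 0.09, a share of higher among called genes of 66.0%, against 50.8%, and 22 members higher and 9 lower.

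A platelet chain was also read in progenitors. Itga2b, which pairs with Itgb3 in the fibrinogen receptor of platelets, had 285 counts over the WT/flox and 487 over the WT progenitor libraries (-0.62, SE 0.28, edgeR adjusted p = 0.417), and 33 and 23 over the lysates. The platelet genes Gp9 and Gp6 had 0 counts in every progenitor library, Pf4 0 to 5, Ppbp 0 or 1, and Gp1bb 22 to 68.

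Genes that work with integrins and laminins were read from 6 lists, beside a share of 3.66% called over all genes in progenitors. Of 22 tested integrin adaptors 0 were called higher and 2 lower in WT/flox, with a median log2 fold change of -0.09. These were Zyx, a focal adhesion protein, at 193 ± 6.37 CPM in WT/flox and 329 ± 48.4 CPM in WT progenitors (-0.77, SE 0.17, edgeR adjusted p = 0.0377), and Lims2, a partner of integrin-linked kinase, at 77.6 ± 12.7 and 136 ± 21.9 CPM (-0.81, SE 0.19, adjusted p = 0.0432). Among 20 tested basement membrane genes other than laminins 1 was higher, the collagen IV chain Col4a6 (1.19, SE 0.25), and 1 lower, Col15a1 (-1.42, SE 0.33), with a median of -0.26. Of 18 tested genes of dystroglycan and other laminin receptors only Dmd, dystrophin, was called, at 74.5 ± 14.2 CPM in WT/flox and 26.1 ± 2.72 CPM in WT progenitors (1.51, SE 0.18, adjusted p = 0.00157), with a list median of -0.01.

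Of the collagen genes listed as partners of the collagen receptors, not all of them fibrillar, 3 of 9 were called higher and 0 lower with a median of 0.43. Col1a1, the main chain of collagen I, was higher by 1.16 (SE 0.20) and Col13a1, a transmembrane collagen, by 1.86 (SE 0.27) in WT/flox progenitors, and the remaining call was Col1a2. Of 20 tested integrin ligands 1 was higher, the matricellular gene Nov (1.79, SE 0.24), and of 8 tested genes of the latent TGF-beta complex, which integrins of the alpha v group open, 1 was lower, Lrrc32 (-0.77, SE 0.18), with list medians of 0.06 and -0.05. In muscle, where 0.727% of all genes were called, 0 of 24 adaptors and 0 of 20 dystroglycan-related genes were called. Of the latent TGF-beta genes 0 of 9 were called, and of the listed collagen genes 0 of 9. There, Nov (1.79, SE 0.15) and Cyr61 (1.31, SE 0.16) were 2 of 3 higher calls among 23 ligands, and Col4a1, the most widespread collagen IV chain, was the 1 call, lower, among 20 basement membrane genes, at 93.9 ± 4.38 CPM in WT/flox and 163 ± 1.48 CPM in WT muscle (-0.79, SE 0.13, adjusted p = 0.0440).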

How the data were processed

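The deposited values are raw counts per gene symbol, in 1 table for sorted progenitors and 1 for lysates. Per the labels' protocols, the libraries were stranded mRNA libraries with paired reads of 43 bp. Among tools and builds, bcl2fastq 2.20, STAR, Bowtie and mm10 appear in the submitters' processing notes. How reads were assigned to genes, and whether by strand, is stated nowhere in the sources used here. The sample table of the lysates calls them FAPs; the labels, which call them whole lysate, were followed. Counts of libraries within a group differed by more than sampling noise in every pair (chi-square divided by its degrees of freedom, 9.13 to 80.2).

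Genotypes were compared within each material with edgeR 4.0.16 (R 4.3.3; filterByExpr, TMM, robust quasi-likelihood F test, two-sided, Benjamini-Hochberg adjustment over all genes tested, threshold 0.05). WT progenitors against WT muscle, and the difference of the genotype effects, came from a joint fit of 11 libraries. SE is the log2 fold change divided by the square root of F. CPM is TMM-scaled within a material; values per kilobase use CPM scaled over 11 libraries and the union of exons in GENCODE M21 (GRCm38). The fits were tested on simulated data. Alternatives were DESeq2 1.42.0, other scalings and filters, sex as a term, each library left out, and longest transcripts. Promoters are from RefSeq (GRCm38.p6). Counting intervals cover counting error only.

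The members and lists were chosen with earlier results of these data known. Members named with values are those called in a comparison or an alternative, the 10 highest per kilobase in each material, Itga7, Ctnnb1 and Hic1; others are given as counts or in groups, and 1 member is not reported here. Of each list, up to 2 called genes with the lowest adjusted p were named.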

Additional observations from a re-analysis of the deposited data

Results flagged for a closer look

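The genotype effect on Itgb5 differed between sorted progenitors and whole muscle by -1.27 on the log2 scale (SE 0.23, edgeR adjusted p = 0.0167), with all 3 WT/flox libraries below all 3 WT libraries in progenitors and all 3 WT/flox libraries above both WT libraries in muscle. DESeq2 gave -1.23 (adjusted p = 4.8e-10). Leaving out each library gave a difference of -1.31 to -1.16, and the edgeR call was lost without 74A3 and without several other libraries. The progenitor libraries are from day 14 except 74A3, and the lysates are from day 56, so material and day cannot be told apart. In the lysates, genotype and the prefix of the animal numbers cannot be told apart either, and the WT level rests on 2 animals.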

How the results depend on the processing

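In progenitors, edgeR called 454 genes and 1 member. DESeq2 called 749 genes and 6 members, 2 higher (Itga1 and Lamb2) and 4 lower (Lamb1, Itgb7 and Itga9 among them). Sex as a term gave 546 genes and no filter on low counts gave 520, with 2 members each. Leaving out each library gave 262 to 483 genes and 0 to 2 members. In muscle, edgeR called 92 genes and 1 member. DESeq2 called 263 genes and 3 members, no filter gave 139 genes, and leaving out each library gave 0 to 239 genes and 0 to 3 members. With 0 genes called, without 71B5, 1023 genes had an unadjusted p under 0.05. For the difference of genotype effects, edgeR called 106 genes and 1 member, DESeq2 269 genes, and leaving out each library gave 54 to 114 genes and 0 to 2 members, Lamb3 being added without 74A2 (-2.57, adjusted p = 0.0326). For WT progenitors against WT muscle, leaving out each library other than the WT lysates gave 9998 to 10601 genes and 30 to 32 members. Where a fit left 1 WT lysate, that library is assumed to vary like the other group. The cause of these shifts was not tested.

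The labels give no replicate numbers. The deposited sample table does. Deviations from the group mean of samples with the same number correlated at 0.30, 0.00 and -0.19 in progenitors, and at -0.03 and -0.56 in muscle. In groups of 2 or 3 these deviations depend on each other, so the correlations cannot show whether samples are paired. The numbers were not taken to pair them. The deposited number was also used as a replicate block in edgeR, chosen after seeing the data. That fit called 491 genes with 2 members in progenitors, and 178 genes with 0 members in muscle. In muscle Itgb5 was then at 0.88 (adjusted p = 0.202). Sex could not be a term in muscle, where all animals are male. The 2 WT lysates and the low counts of several integrins limit what could be detected.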
